A study of Mus musculus with 6 samples.

Results

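The urea cycle and amino acid catabolism were described through 58 genes, chosen by symbol from the known enzymes of these pathways, of the 54446 genes listed in an RNA-seq comparison of liver from *Fmo5*-/- and wild-type (WT) mice. Each symbol was found in the deposited table of the study's comparison and was matched by its Ensembl identifier to the raw counts of the libraries. The 58 members fall into 9 groups by role, with 6 genes of the urea cycle, 6 of glutamate, proline and ornithine, 4 transaminases, 4 of tyrosine, 6 of tryptophan, 6 of serine and glycine, 14 of the branched-chain amino acids, 8 of methionine and cysteine and 4 of histidine. All 58 were tested and all had a mean normalised count of at least 500. The study compared 3 WT male mice with 3 male *Fmo5*-/- mice, in which the gene of flavin-containing monooxygenase 5 is disrupted. WT mice were C57BL/6J and the knockout line was made on that background, the strain being labelled C57BL/6 for both, and both were 32 weeks of age, received standard chow, and no other allele or treatment is named for either. One library was made from the liver of each mouse.

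The liver is the main site at which the nitrogen of amino acids is removed and converted to urea. Transaminases and glutamate dehydrogenase collect the amino groups as glutamate, aspartate and ammonia, and the urea cycle, which begins in mitochondria and ends in the cytosol of periportal hepatocytes, releases them as urea. The carbon skeletons are broken down by separate routes, many of them in mitochondria, to intermediates that feed the citric acid cycle, glucose or ketone bodies.

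Libraries held 44886286 to 52338675 counts on genes. The targeted gene, *Fmo5* on chromosome 3, had normalised counts of 39808, 37405 and 30240 in WT and 1071, 1102 and 1194 in *Fmo5*-/- mice, a log2 fold change of -5.00, so every library matched its label. Normalised counts were scaled by TMM, which corrects library totals for composition. Scaling to library totals alone, added after the data had been seen, moved the log2 fold change of a typical gene up by 0.11. The hepatocyte genes *Alb*, *Apoa1*, *Ttr*, *Hnf4a*, *Apob* and *Serpina1c* summed to 107722 to 143715 TPM, a level per exon length that adds up to the same total in every library, so each library carried the defining transcripts of liver.

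Of the 58 members, 3 had a lower and 0 a higher expression in the livers of *Fmo5*-/- mice at an adjusted p under 0.05 (edgeR) with a mean of at least 500, the rule for every call here. The 3 were *Mccc1*, *Gpt2* and *Csad*, enzymes of leucine degradation, alanine transamination and taurine synthesis. In this fit 0.496% of the 16734 genes tested were called lower and 0.257% higher, which is 1.06% and 0.550% of the 7819 genes with a mean of at least 500. Without the adjustment, 21 members were lower and 1 was higher at a p under 0.05, and 25.2% of genes at that mean passed this limit, 17.6% lower and 7.62% higher. With DESeq2, 10 members were lower and 1 was higher, against 6.77% and 2.77% of genes at that mean. Among them were *Mccc1*, *Gpt2*, *Csad*, *Tdo2*, *Asl*, *Shmt1*, *Bckdha*, *Hibch* and *Hibadh*, which were lower, and *Got1*, which was higher.

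The 58 genes leaned to the lower side by small amounts. The mean was lower in *Fmo5*-/- mice for 47 and higher for 11, while 64.0% of all genes at that mean were lower. Their median log2 fold change was -0.16, against -0.06 for all genes at that mean, and ranged from -0.83 to 0.43. When libraries were scaled to their totals alone, 32 members had a lower mean and 26 a higher one, with a median of -0.05 against 0.05 for all genes at that mean. When genes under a mean of 500 were dropped before fitting, 36 were lower and 22 higher. Relative to the median of genes at that mean, which sets aside such shifts, 36 of the 58 were below it. A log2 fold change under -0.3 was found for 22.4% of the members and 9.69% of genes at that mean, and one above 0.3 for 1.72% and 5.45%. The genotypes did not overlap for 20 members, 18 of them lower, and for 27.4% of all genes tested and 31.3% of genes at that mean, the latter made up of 21.9% lower and 9.39% higher. Across all genes 83 were called lower and 43 higher, a split that became 23 and 30 when low genes were dropped before fitting and 45 and 178 with totals alone.

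**Figure D1:**
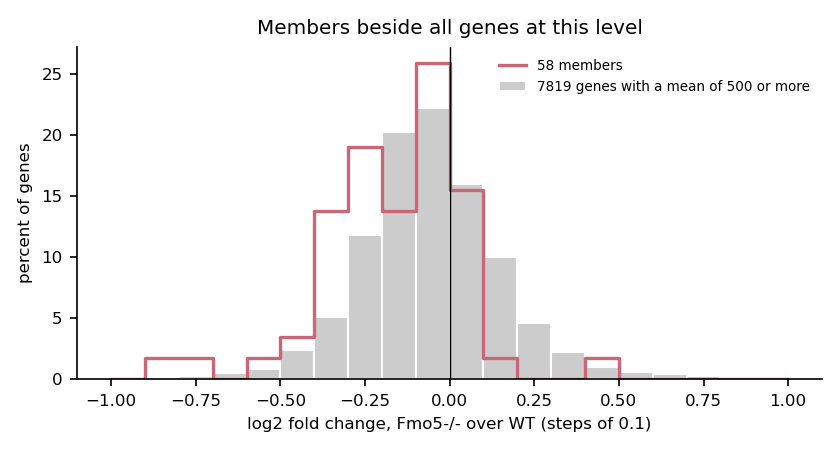
Share of genes (percent, vertical axis) in steps of 0.1 of the log2 fold change, *Fmo5*-/- over WT (horizontal axis), for the 58 members (red line) and the 7819 genes with a mean normalised count of at least 500 (grey bars), of which 81 lie outside the plotted range. Of the members 13 lie under -0.3, and 1, *Got1*, lies above 0.2.

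Branched-chain amino acid catabolism was the group with the most members, 14. The mean was lower in *Fmo5*-/- mice for 13 of them, against 64.0% of all genes at a mean of at least 500. With totals alone it was lower for 10. Lower calls numbered 1 with edgeR and 4 with DESeq2, against 1.06% and 6.77% of genes at that mean. For 8, or 57.1%, the genotypes did not overlap and the mean was lower, against 21.9% of genes at that mean. In either direction 31.3% of those genes did not overlap. The median log2 fold change of the 14 was -0.25, or -0.19 relative to genes at that mean, and -0.14 with totals alone. Leucine, isoleucine and valine are first transaminated, then decarboxylated by the branched-chain keto acid dehydrogenase, and then follow separate routes.

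Expression of *Mccc1*, encoding the biotin-carrying subunit of methylcrotonyl-CoA carboxylase in leucine degradation, was lower in *Fmo5*-/- mice. Normalised counts were 3565, 3316 and 3116 in WT and 1982, 1976 and 2169 in *Fmo5*-/- mice. Every knockout library lay below every WT library, with little spread within either genotype. The mean fell by 38.7%, from 3332 ± 225 to 2042 ± 109 (SD, n = 3), with a log2 fold change of -0.71 ± 0.083 (SE, 95% interval -0.89 to -0.52) and an adjusted p of 0.00850 in edgeR. Leaving out 1 library at a time gave adjusted p from 0.00614 to 0.0503, and the call was lost without *Fmo5*-/- replicate 1. *Mccc1* lies on chromosome 3 (35959312-36000678, minus strand), 61.7 Mb from *Fmo5*. On that chromosome 5.53% of genes with a mean of at least 500 were called in either direction, against 1.61% over all chromosomes, and what this position contributes was not tested. Of the exon bases of *Mccc1* 5.597% are shared with genes on the other strand.

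The partner subunit of the same enzyme is encoded by *Mccc2*. Its counts were 3859, 3473 and 3324 in WT and 3134, 2988 and 3102 in *Fmo5*-/- mice, with a log2 fold change of -0.21 ± 0.082 and an adjusted p of 0.183 in edgeR. The genotypes did not overlap. *Mccc1* is related in sequence to *Pcca*, the biotin-carrying subunit of propionyl-CoA carboxylase, and the coding stretch around the biotin-carrying lysine is shown for both so that the subunits, of the leucine route and of the isoleucine and valine routes, can be compared. The stretches are reference sequence read from GENCODE transcripts on GRCm38, in coding direction, with the codons at the lysine in capitals. That of *Mccc1* spans exons 18 and 19 (chr3:35960109-35960971, minus strand) with the lysine at codon 677 of 717, and that of *Pcca* lies in exon 23 (chr14:122887056-122887115, plus strand) with the lysine at codon 690 of 724. Of the 60 bases 30 are identical.
Mccc1: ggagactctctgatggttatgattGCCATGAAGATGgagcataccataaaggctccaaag
Pcca: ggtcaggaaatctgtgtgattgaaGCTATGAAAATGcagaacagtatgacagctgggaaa

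*Pcca* had counts of 5505, 5126 and 5058 in WT and 4626, 3695 and 4345 in *Fmo5*-/- mice, without overlap. This gave a log2 fold change of -0.31 ± 0.098 and an adjusted p of 0.120 in edgeR. For its partner *Pccb* the genotypes overlapped and the log2 fold change was -0.13.

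Of the branched-chain keto acid dehydrogenase, the E1 alpha and E2 subunits did not overlap between genotypes and the E1 beta subunit did. *Bckdha*, the E1 alpha subunit, had counts of 3573, 3214 and 2941 in WT and 2781, 2353 and 2563 in *Fmo5*-/- mice, which do not overlap. Its log2 fold change of -0.34 had an adjusted p of 0.0988 in edgeR and 0.0447 in DESeq2. Of its exon bases 61.66% are shared with *B3gnt8* on the other strand, and as reads that lay on several genes were left out, its counts rest on the remaining bases. *Bckdhb*, the E1 beta subunit, overlapped between genotypes, with a log2 fold change of -0.06, which turned to 0.05 with totals alone and 0.01 when low genes were dropped before fitting. *Dbt*, the E2 subunit, had a log2 fold change of -0.21 without overlap (adjusted p of 0.180 in edgeR) and lies on chromosome 3, 18.9 Mb from *Fmo5*.

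*Hibadh*, *Hibch*, *Aldh6a1* and *Mut*, whose enzymes act in valine breakdown, each had a lower mean in *Fmo5*-/- mice and did not pass the test with edgeR. *Hibadh*, encoding 3-hydroxyisobutyrate dehydrogenase, had the highest level per length of the group, at 360 ± 35.7 TPM in WT and 319 ± 6.62 TPM in *Fmo5*-/- mice. In normalised counts, WT libraries held 18436, 17124 and 15446 and *Fmo5*-/- libraries 13801, 13483 and 14433. The genotypes did not overlap, and the log2 fold change of -0.29 had an adjusted p of 0.124 in edgeR and 0.0488 in DESeq2. *Hibch*, the hydrolase of the preceding step, had a log2 fold change of -0.32, also without overlap, with an adjusted p of 0.0908 in edgeR and 0.0366 in DESeq2. *Aldh6a1*, methylmalonate-semialdehyde dehydrogenase, and *Mut*, the mutase that receives methylmalonyl-CoA, had log2 fold changes of -0.35 and -0.30 and adjusted p of 0.144 and 0.146 in edgeR. For *Ivd*, *Auh* and *Bcat2*, which act on isovaleryl-CoA, methylglutaconyl-CoA and the intact amino acids, the log2 fold changes were -0.02, -0.08 and 0.06, and the genotypes overlapped. The sign for *Ivd* turned with totals alone and when low genes were dropped before fitting, that for *Auh* with totals alone, and that for *Bcat2* with the reads of 1 strand.

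**Figure D2:**
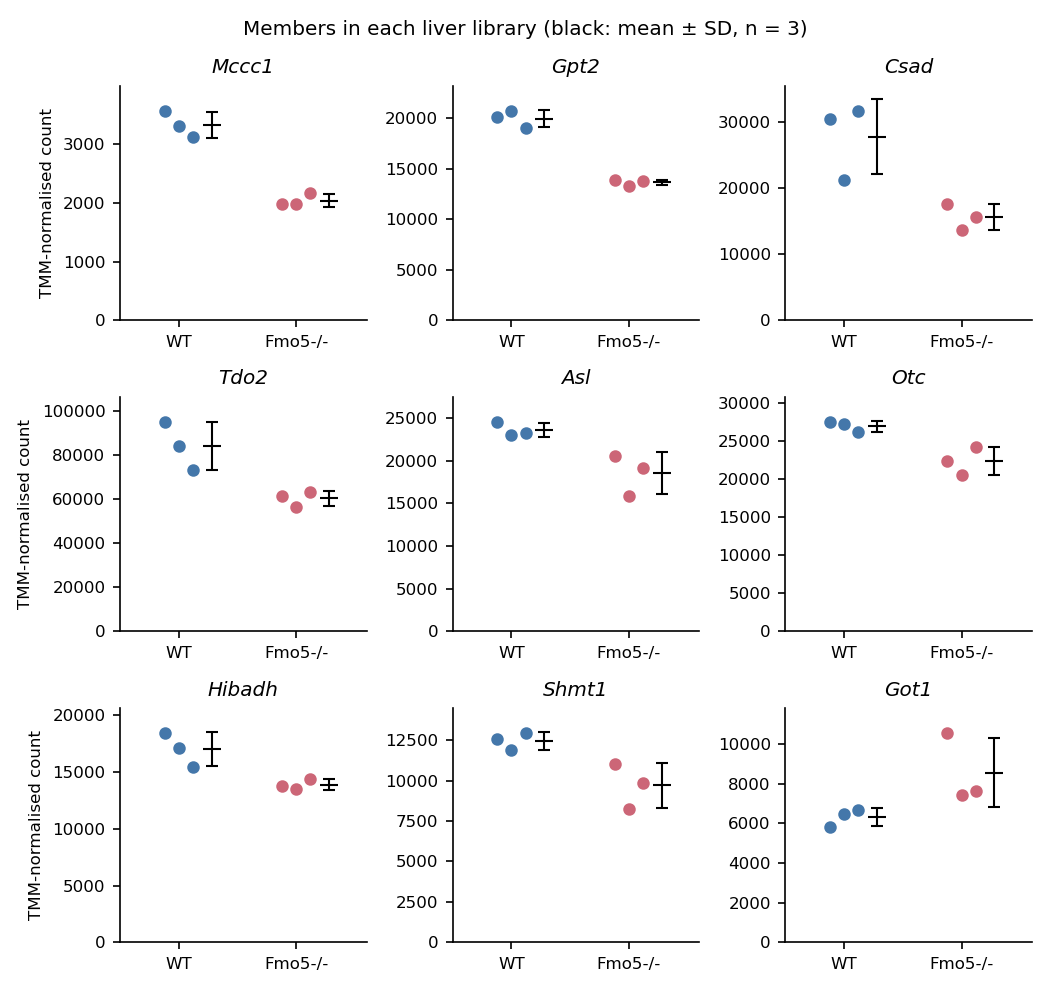
TMM-normalised counts (vertical axis, from 0) of 9 members in each liver library, with WT in blue, *Fmo5*-/- in red and the mean ± SD (n = 3) in black. The genotypes do not overlap in any of the 9 panels, and *Got1* is the member that lies higher in *Fmo5*-/- mice, with 1 library at 10542 above the other two at 7449 and 7627.

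Transaminases move amino groups onto keto acids, and the liver holds a mitochondrial and a cytosolic enzyme for alanine and for aspartate. Of the 4 members, 1 passed the test with edgeR and 3 did not overlap between genotypes, against 1.61% and 31.3% of genes with a mean of at least 500 in either direction. Expression of *Gpt2*, encoding mitochondrial alanine transaminase, was lower in *Fmo5*-/- mice. Normalised counts were 20063, 20685 and 19032 in WT and 13831, 13333 and 13756 in *Fmo5*-/- mice. The knockout libraries sat within a narrow band well below the lowest WT library. The mean fell by 31.5%, from 19927 ± 835 to 13640 ± 269 (SD, n = 3), with a log2 fold change of -0.55 ± 0.082 (SE, 95% interval -0.73 to -0.36) and an adjusted p of 0.0230 in edgeR. The adjusted p ran from 0.0282 to 0.0959 when 1 library was left out, and the call was lost without WT replicate 1, WT replicate 2, *Fmo5*-/- replicate 1 or *Fmo5*-/- replicate 2.

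The cytosolic alanine transaminase is encoded by *Gpt*, which had the highest level per length of the 4, at 324 ± 33.8 TPM in WT and 341 ± 20.8 TPM in *Fmo5*-/- mice. WT libraries had 16868, 16271 and 14211 normalised counts and *Fmo5*-/- libraries 14466, 15742 and 15837. The genotypes overlapped, with a log2 fold change of -0.04 (adjusted p of 0.850 in edgeR), which turned to 0.07 with totals alone and 0.03 when low genes were dropped before fitting.

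The aspartate transaminases lay on opposite sides. *Got1*, the cytosolic enzyme, had normalised counts of 5831, 6451 and 6671 in WT and 10542, 7449 and 7627 in *Fmo5*-/- mice. All knockout libraries lay above the WT libraries, and *Fmo5*-/- replicate 1 lay far above the others. The log2 fold change of 0.43 ± 0.14 had an adjusted p of 0.120 in edgeR and 0.0489 in DESeq2, and it was 0.25 without *Fmo5*-/- replicate 1. The same library had the highest summed level of the red cell markers, 1008 TPM against 273 to 513 TPM in the others, and its part in *Got1* was not tested. *Got2*, the mitochondrial enzyme, had counts of 11375, 10550 and 10476 in WT and 9043, 9076 and 9518 in *Fmo5*-/- mice, without overlap. This gave a log2 fold change of -0.23 ± 0.081 and an adjusted p of 0.148 in edgeR.

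The 8 genes of methionine and cysteine metabolism had a lower mean in *Fmo5*-/- mice, as did 64.0% of all genes with a mean of at least 500. The median of their log2 fold changes was -0.21, or -0.15 relative to genes at that mean, and -0.11 with totals alone. With totals alone *Gnmt*, *Bhmt* and *Cbs* turned to the higher side, *Gnmt* and *Cbs* also when low genes were dropped before fitting. Of the 8, 1 was called lower with edgeR and 1 with DESeq2, against 1.06% and 6.77% of genes at that mean. For 2, or 25.0%, the genotypes did not overlap and the mean was lower, against 21.9% of genes at that mean. In either direction 31.3% of those genes did not overlap. Methionine is activated to S-adenosylmethionine, used as methyl donor and recovered as homocysteine, which is either methylated again or passed to cysteine and from there to taurine.

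Expression of *Csad*, encoding cysteine sulfinic acid decarboxylase, the enzyme that commits cysteine sulfinate to taurine, was lower in *Fmo5*-/- mice. Normalised counts were 30425, 21298 and 31643 in WT and 17673, 13683 and 15632 in *Fmo5*-/- mice. WT replicate 2 was lower than the other WT libraries but still above each knockout library. The mean fell by 43.6%, from 27788 ± 5654 to 15663 ± 1995 (SD, n = 3), the largest change among the members, with a log2 fold change of -0.83 ± 0.16 (SE, 95% interval -1.19 to -0.46) and an adjusted p of 0.0494 in edgeR. This call stood close to the threshold. The adjusted p was 0.0193 without WT replicate 2 and between 0.0548 and 0.144 without any other single library, and it was 0.0707 when low genes were dropped before fitting. *Cdo1*, cysteine dioxygenase, which makes the substrate of *Csad*, had a log2 fold change of -0.20 (adjusted p of 0.359 in edgeR), and the genotypes overlapped.

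*Gnmt*, glycine N-methyltransferase, which consumes surplus S-adenosylmethionine, had the highest level per length of all 58 members, at 3694 ± 354 TPM in WT and 3902 ± 372 TPM in *Fmo5*-/- mice. The libraries gave 108261, 97840 and 90793 normalised counts in WT and 107559, 91989 and 89749 in *Fmo5*-/- mice. The genotypes overlapped over nearly their whole range, with a log2 fold change of -0.04 (adjusted p of 0.880 in edgeR). *Mat1a*, which makes S-adenosylmethionine in liver, and *Ahcy*, which splits S-adenosylhomocysteine, had log2 fold changes of -0.24 and -0.23 with adjusted p of 0.311 and 0.244 in edgeR. *Cth*, cystathionine gamma-lyase, had a log2 fold change of -0.25 without overlap (adjusted p of 0.195 in edgeR) and is on chromosome 3, 60.3 Mb from *Fmo5*. *Bhmt* and *Cbs*, which remethylate homocysteine and pass it to cystathionine, had log2 fold changes of -0.07 and -0.06.

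Promoter sequence is shown for the 3 members that passed the test with edgeR, so that the places where their transcripts start can be seen side by side. The windows are RefSeq reference sequence on GRCm38.p6 and run from upstream to the base before the start of the principal transcript, 250 bases for *Mccc1* (chr3:36000679-36000928, minus strand) and *Gpt2* (chr8:85492326-85492575, plus strand) and 235 bases for *Csad* (chr15:102189059-102189293, minus strand). Capitals mark matches, on either strand, to CCAAT, the core of the NF-Y motif.
Mccc1: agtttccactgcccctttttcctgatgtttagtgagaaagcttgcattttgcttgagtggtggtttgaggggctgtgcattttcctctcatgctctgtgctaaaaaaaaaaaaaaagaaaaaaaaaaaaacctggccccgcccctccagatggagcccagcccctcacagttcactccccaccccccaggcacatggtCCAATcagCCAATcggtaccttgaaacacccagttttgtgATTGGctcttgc
Gpt2: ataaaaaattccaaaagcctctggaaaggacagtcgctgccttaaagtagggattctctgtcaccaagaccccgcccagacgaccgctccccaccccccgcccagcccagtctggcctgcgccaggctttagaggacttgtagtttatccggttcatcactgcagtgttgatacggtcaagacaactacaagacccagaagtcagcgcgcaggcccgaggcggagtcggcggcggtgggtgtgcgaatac
Csad: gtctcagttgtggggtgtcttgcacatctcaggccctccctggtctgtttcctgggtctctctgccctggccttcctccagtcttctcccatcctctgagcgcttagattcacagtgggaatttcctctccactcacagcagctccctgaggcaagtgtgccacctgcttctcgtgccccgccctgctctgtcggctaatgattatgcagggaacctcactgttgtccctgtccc

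The *Mccc1* window holds 3 such matches, which begin 52, 44 and 12 bases before the start, and the windows of *Gpt2* and *Csad* hold 0. Of the 58 members, 45 had a promoter in the RefSeq table (250 bases before to 50 after the start), and 25 of these, 55.6%, held CCAAT on either strand in any promoter listed for the gene, against 41.1% of the 27025 genes in the table. *Csad* is among the 25, although the window shown for it holds 0. TTGCNNAA, a C/EBP motif, was found in 3 members, *Hal*, *Hgd* and *Prodh2*, and in 12.2% of genes. CAAAGTCCA (HNF4), TGACGTCA (CRE) and the DR1 repeat, the element of PPAR and HNF4, were found in 0 members, and in 0.555%, 2.03% and 0.0481% of genes. Both strands were searched for every motif, each motif was counted independently of the others, and the counts describe letters in a window only.

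In the urea cycle no member passed the test with edgeR, while 3 of the 6 were lower at an unadjusted p under 0.05 and 2 were lower with DESeq2, against 17.6% and 6.77% of genes with a mean of at least 500. The median log2 fold change of the group was -0.18, or -0.12 relative to genes at that mean, and -0.08 with totals alone. *Asl*, encoding argininosuccinate lyase, which releases arginine, had normalised counts of 24511, 22955 and 23200 in WT and 20583, 15821 and 19194 in *Fmo5*-/- mice. The WT libraries were tight, and each knockout library was below them. This log2 fold change of -0.35 ± 0.11 had an adjusted p of 0.120 in edgeR and 0.0386 in DESeq2. *Otc*, which joins ornithine to carbamoyl phosphate, had counts of 27483, 27229 and 26143 in WT and 22405, 20599 and 24225 in *Fmo5*-/- mice, without overlap. Its log2 fold change of -0.27 had an adjusted p of 0.140 in edgeR and 0.0654 in DESeq2.

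For the entry of the cycle and the condensing step the genotypes overlapped. *Cps1*, encoding carbamoyl phosphate synthetase, had counts of 145800, 148872 and 149934 in WT and 156811, 122141 and 136671 in *Fmo5*-/- mice. The knockout libraries lay on either side of the WT libraries, with a log2 fold change of -0.10 (95% interval -0.35 to 0.15), which was 0.01 with totals alone. *Nags*, which makes the activator of that synthetase, and *Ass1*, argininosuccinate synthetase, had log2 fold changes of -0.04 and 0.09 with overlapping genotypes, and the sign for *Nags* turned with totals alone and when low genes were dropped before fitting.

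**Figure D3:**
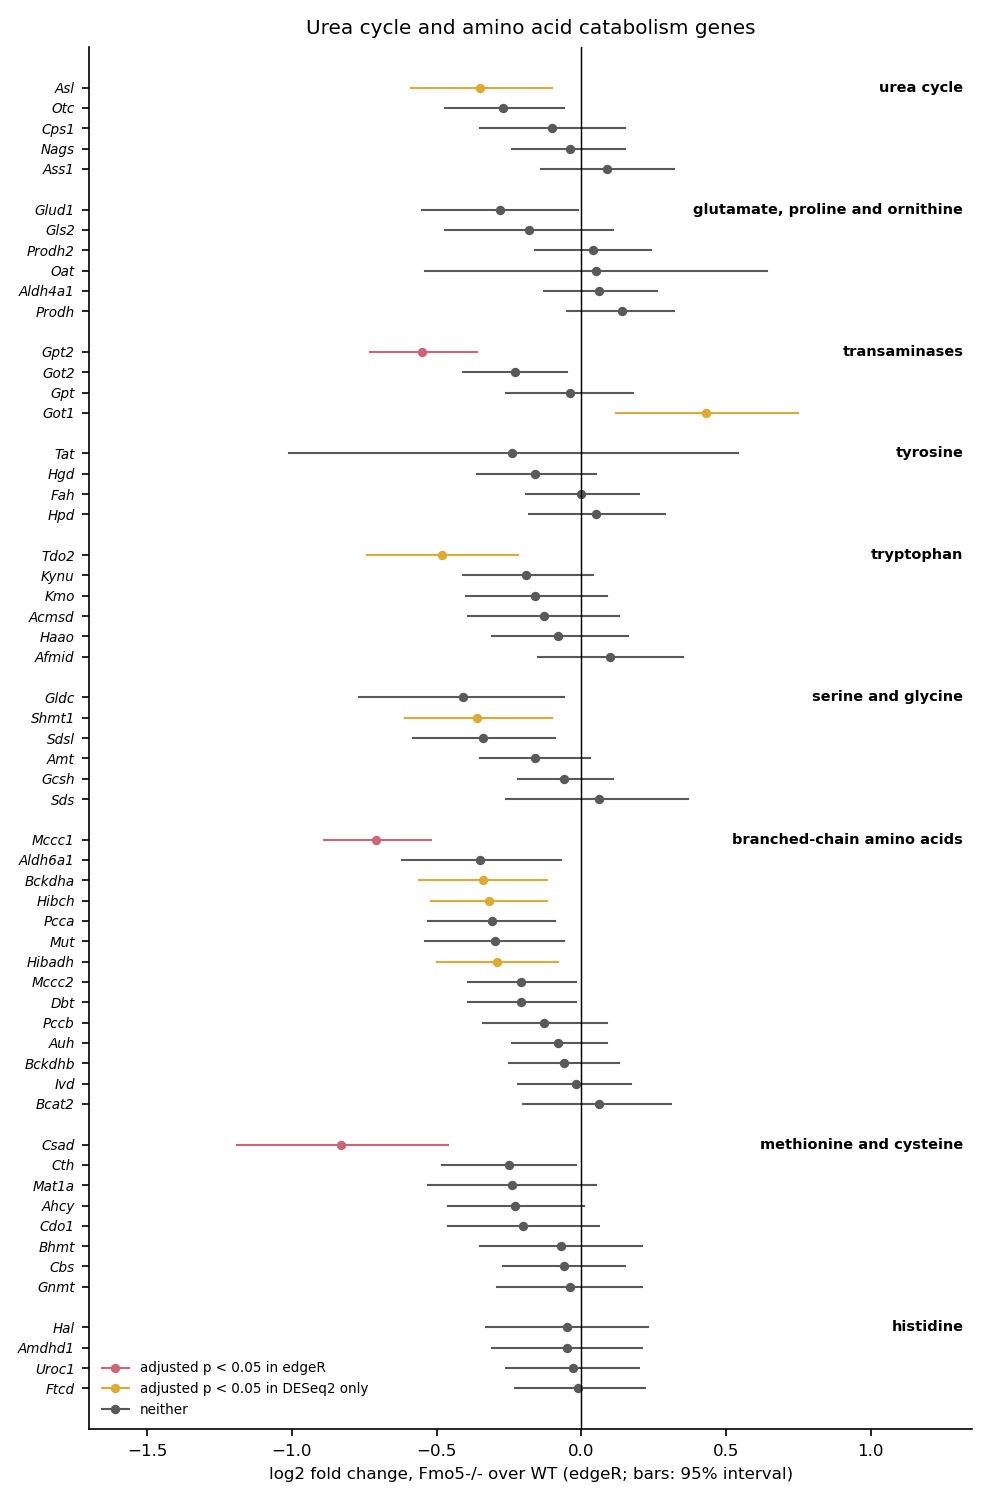
Log2 fold change, *Fmo5*-/- over WT (horizontal axis), of the members by role group, with 95% intervals from edgeR as bars. Red marks the 3 members at an adjusted p under 0.05 in edgeR, yellow those that pass in DESeq2 but not in edgeR, and grey the others. *Tat* and *Oat* have the widest intervals.

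The 6 genes of glutamate, proline and ornithine metabolism had a median log2 fold change of 0.05, or 0.11 relative to genes with a mean of at least 500, and 0.16 with totals alone, with 4 higher and 2 lower in mean. None passed the test with edgeR or DESeq2, and 1 had an unadjusted p under 0.05, against 25.2% of genes at that mean. With edgeR 1.61% of those genes passed, and with DESeq2 6.77% passed as lower and 2.77% as higher. *Oat*, ornithine aminotransferase, had the highest level per length, at 935 ± 263 TPM in WT and 1052 ± 302 TPM in *Fmo5*-/- mice. In normalised counts, WT libraries held 57810, 61557 and 36298 and *Fmo5*-/- libraries 51820, 68977 and 40668. Libraries within a genotype differed more than the genotypes did, and the sign turned without WT replicate 3 or without *Fmo5*-/- replicate 2.

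*Glud1*, the mitochondrial glutamate dehydrogenase that releases ammonia from glutamate, had the largest difference of this group. WT libraries had 65631, 70282 and 57348 normalised counts and *Fmo5*-/- libraries 58657, 46330 and 54589, which overlap. The log2 fold change of -0.28 had an adjusted p of 0.220 in edgeR. *Prodh*, proline dehydrogenase, was higher in each *Fmo5*-/- library, with counts of 12273, 12228 and 11687 against 11667, 10760 and 10515 in WT. The log2 fold change was 0.14 (adjusted p of 0.384 in edgeR). *Gls2*, the liver glutaminase, *Prodh2* of hydroxyproline breakdown and *Aldh4a1*, which completes proline breakdown to glutamate, had log2 fold changes of -0.18, 0.04 and 0.06, with overlap.

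In the tryptophan route 5 of 6 members had a lower mean, 4 of them also with totals alone, against 64.0% of genes with a mean of at least 500. None passed with edgeR, 1 was lower at an unadjusted p under 0.05 and 1 with DESeq2, against 17.6% and 6.77% of those genes. That member was *Tdo2*, encoding tryptophan 2,3-dioxygenase, which opens the tryptophan ring. The libraries gave 94904, 84039 and 73247 normalised counts in WT and 61480, 56239 and 63117 in *Fmo5*-/- mice. The WT libraries were spread out and each stayed above the knockout libraries. This log2 fold change of -0.48 ± 0.11 (95% interval -0.74 to -0.22) had an adjusted p of 0.0709 in edgeR and 0.00236 in DESeq2. *Tdo2* lies on chromosome 3, 15.7 Mb from *Fmo5*.

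The later enzymes of the route overlapped between genotypes. *Haao*, 3-hydroxyanthranilate dioxygenase, had a level per length of 927 ± 68.7 TPM in WT and 955 ± 43.5 TPM in *Fmo5*-/- mice. Its normalised counts were 37395, 31087 and 35599 in WT and 33551, 30505 and 34744 in *Fmo5*-/- mice, with a log2 fold change of -0.08, which turned to 0.03 with totals alone. *Kynu* and *Kmo*, which act on kynurenine, *Acmsd*, which diverts the route away from NAD synthesis, and *Afmid*, kynurenine formamidase, had log2 fold changes of -0.19, -0.16, -0.13 and 0.10. Of the exon bases of *Afmid* 46.6% are shared with *Tk1* or a predicted gene, so its counts are uncertain.

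The 4 genes of tyrosine breakdown gave 0 unadjusted p under 0.05, against 25.2% of genes with a mean of at least 500. They gave no call with edgeR or DESeq2, against 1.61% of those genes with edgeR and 6.77% lower and 2.77% higher with DESeq2. *Hpd*, 4-hydroxyphenylpyruvate dioxygenase, was the most abundant, at 2431 ± 276 TPM in WT and 2736 ± 135 TPM in *Fmo5*-/- mice. In normalised counts, WT libraries held 97817, 88005 and 79191 and *Fmo5*-/- libraries 94174, 92935 and 87909, with a log2 fold change of 0.05. *Tat*, tyrosine aminotransferase, the hormone-responsive entry enzyme, had normalised counts of 64030, 40738 and 77312 in WT and 72905, 42844 and 38896 in *Fmo5*-/- mice. High and low libraries occurred in both genotypes, and the 95% interval of the log2 fold change (-0.24) ran from -1.01 to 0.54. *Tat* had the largest spread within a genotype of the 58 members, with a pooled SD of 0.482 on the log2 scale, followed by *Oat* at 0.399 and *Csad* at 0.258. The median over the members was 0.121 and that over genes at a mean of at least 500 was 0.115. *Hgd* and *Fah*, of the later steps, had log2 fold changes of -0.16 and 0.00.

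The 6 genes of serine and glycine breakdown had a median log2 fold change of -0.25, or -0.19 relative to genes with a mean of at least 500, and -0.14 with totals alone. Of the 6, 5 were lower in mean (4 with totals alone), 3 were lower at an unadjusted p under 0.05, 0 were called with edgeR and 1 with DESeq2, against 64.0% of genes at that mean lower in mean, 17.6% lower at that p and 6.77% lower with DESeq2. *Shmt1*, the cytosolic serine hydroxymethyltransferase, had the highest level per length, at 168 ± 2.91 TPM in WT and 142 ± 17.8 TPM in *Fmo5*-/- mice. WT libraries had 12572, 11867 and 12930 normalised counts and *Fmo5*-/- libraries 11018, 8267 and 9858, which do not overlap. The log2 fold change of -0.36 had an adjusted p of 0.116 in edgeR and 0.0372 in DESeq2.

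*Gldc*, the decarboxylase of the glycine cleavage system, had the largest difference of this group. The libraries gave 12104, 8569 and 10368 normalised counts in WT and 8899, 6323 and 8064 in *Fmo5*-/- mice. The highest knockout library lay above the lowest WT library, and the log2 fold change of -0.41 had an adjusted p of 0.173 in edgeR. *Gcsh* and *Amt*, the carrier protein and aminomethyltransferase of the same system, had log2 fold changes of -0.06 and -0.16, the former turning to 0.05 with totals alone and 0.01 when low genes were dropped before fitting. *Sdsl* had a log2 fold change of -0.34 without overlap (adjusted p of 0.125 in edgeR), while its relative *Sds*, serine dehydratase, had one of 0.06 with overlap.

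The 4 genes of histidine breakdown had the smallest differences, with log2 fold changes between -0.05 and -0.01. They had 0 unadjusted p under 0.05, against 25.2% of genes with a mean of at least 500. Calls were 0 in edgeR or DESeq2, against 1.61% of those genes with edgeR and 6.77% lower and 2.77% higher with DESeq2. All 4 signs turned positive with totals alone and when low genes were dropped before fitting. *Ftcd*, which passes the formimino group of histidine to folate, was the most abundant, at 616 ± 36.6 TPM in WT and 666 ± 43.2 TPM in *Fmo5*-/- mice. Its normalised counts were 29858, 29038 and 33684 in WT and 29090, 29887 and 33263 in *Fmo5*-/- mice. *Amdhd1*, imidazolonepropionase, had counts of 14520, 12711 and 15219 in WT and 14783, 11759 and 14353 in *Fmo5*-/- mice. Neither separated the genotypes. *Hal*, histidine ammonia-lyase, and *Uroc1*, urocanase, had log2 fold changes of -0.05 and -0.03.

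**Figure D4:**
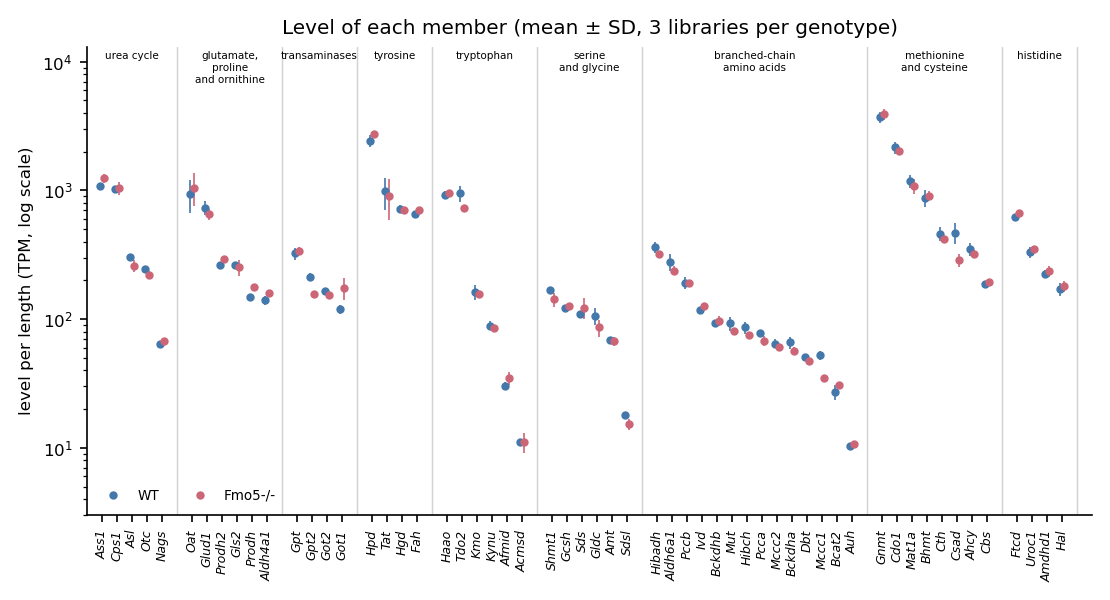
Level per length (TPM, log scale, vertical axis) of the members, ordered by level within its role group, as mean ± SD of 3 libraries for WT (blue) and *Fmo5*-/- (red). Levels run from 10.4 TPM for *Auh* to 3694 TPM for *Gnmt* in WT, and the genotypes of a member lie close together on this scale.

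TPM carry no TMM factor and serve here mainly to compare genes with each other. In WT liver, *Gnmt*, *Hpd*, *Cdo1* at 2155 ± 234 TPM and *Mat1a* at 1184 ± 141 TPM were among the most abundant members, and the genes of methionine and cysteine together held 8793 to 10019 TPM in WT and 8771 to 9756 TPM in *Fmo5*-/- libraries. The genes of the branched-chain amino acids held far less in total, 1398 to 1664 TPM in WT and 1410 to 1469 TPM in *Fmo5*-/- libraries. *Mat1a* and *Ass1* follow each other in this order, at 1184 ± 141 and 1075 ± 64.2 TPM in WT, ranges that overlap. In *Fmo5*-/- mice their order was turned, at 1084 ± 140 and 1241 ± 108 TPM, ranges that also overlap. The 58 members held 3.02% to 3.29% of the counts on genes in WT and 2.98% to 3.13% in *Fmo5*-/- libraries. These ranges overlap.

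Ratios within pairs of functionally linked members do not depend on how libraries are scaled. The 7 pairs were chosen after their values had been seen and are given without a test. In each, the member with the lower log2 fold change was put on top, and *Mccc1*, *Gpt2* and *Csad*, called with edgeR, are among these. A lower ratio in *Fmo5*-/- mice therefore follows from the choice and adds no support to the values of the single members. *Mccc1* over *Mccc2* was 0.799, 0.826 and 0.811 in WT and 0.547, 0.572 and 0.605 in *Fmo5*-/- libraries. *Gpt2* over *Gpt*, the mitochondrial against the cytosolic enzyme, was 0.616, 0.658 and 0.693 in WT and 0.495, 0.439 and 0.450 in *Fmo5*-/- libraries. For aspartate the same ratio, *Got2* over *Got1*, was 1.59, 1.33 and 1.28 in WT and 0.698, 0.991 and 1.02 in *Fmo5*-/- libraries. In each of these pairs every knockout library had a lower ratio than every WT library.

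Differences of the mean log2 ratio, *Fmo5*-/- minus WT, were -0.50 for *Mccc1*/*Mccc2*, -0.51 for *Gpt2*/*Gpt* and -0.65 for *Got2*/*Got1*. Those of *Csad*/*Cdo1*, *Bckdha*/*Bckdhb* and *Pcca*/*Pccb* were -0.62, -0.28 and -0.19, also without overlap. *Gldc*/*Gcsh* had a difference of -0.36, and its genotypes overlapped.

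**Figure D5:**
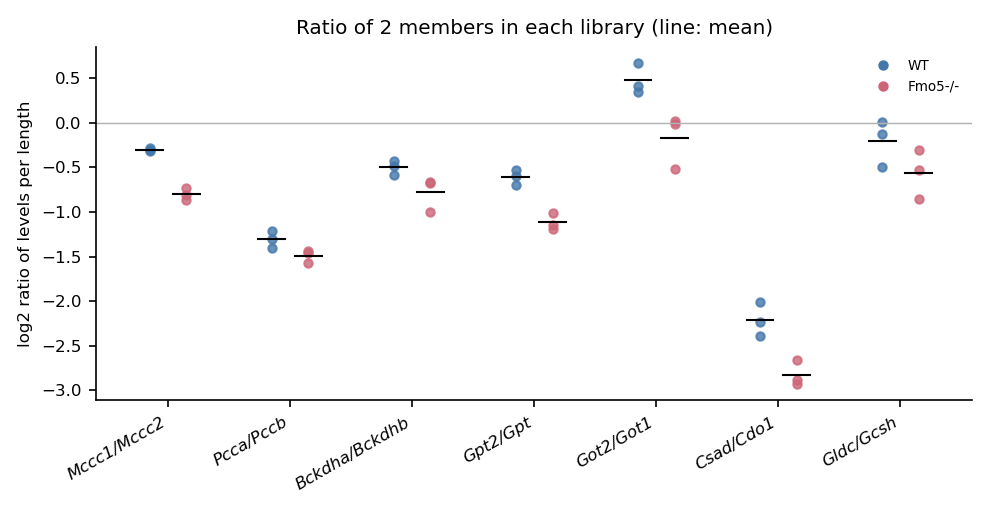
Log2 ratio of the levels per length of 2 members (vertical axis) in each library, for 7 pairs, with WT in blue, *Fmo5*-/- in red and the mean as a black line. The pairs were chosen after their values had been seen, with the member of lower log2 fold change on top. The genotypes are separate in 6 of the 7 pairs and overlap for *Gldc*/*Gcsh*.

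Related genes that are not members were taken from a list of transport, synthesis and neighbouring steps, of which 72 were matched and 66 tested. Of the 66, 2 were called lower and 0 higher with edgeR, and 8 lower and 0 higher with DESeq2. Among all genes with a mean of at least 500, 1.06% were called lower and 0.550% higher with edgeR, and 6.77% and 2.77% with DESeq2. At an unadjusted p under 0.05, 18 of the 66 were lower and 2 higher, against 17.6% and 7.62% of genes at that mean. The median log2 fold change of the 66 was -0.11. *Acat1*, the thiolase that ends isoleucine and ketone body breakdown, had normalised counts of 30876, 28046 and 27869 in WT and 20099, 20608 and 22401 in *Fmo5*-/- mice. Its log2 fold change was -0.46, with an adjusted p of 0.0494 in edgeR. *Asrgl1*, an asparaginase with a mean of 532, close to the limit of 500, had counts of 697.9, 610.4 and 658.5 in WT and 380.1, 394.7 and 450.6 in *Fmo5*-/- mice. The log2 fold change was -0.68, with an adjusted p of 0.0256 in edgeR. Neither gene overlapped between genotypes. Without 1 library, *Acat1* was called in 1 of the 6 fits (without *Fmo5*-/- replicate 3), with adjusted p from 0.0416 to 0.162 in edgeR. *Asrgl1* was called in 2 (without WT replicate 2 or *Fmo5*-/- replicate 3), with adjusted p from 0.0108 to 0.109 in edgeR.

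Of the 66 related genes 46, or 69.7%, were lower in mean and 22, or 33.3%, did not overlap between genotypes, against 49.2% and 27.4% of all genes tested and 64.0% and 31.3% of those with a mean of at least 500, which 55 of the 66 had. In the related branched-chain list, all with a mean of at least 500, 12 of 14 tested genes were lower in mean and 8 of 14 did not overlap. *Dld*, the E3 subunit that the branched-chain dehydrogenase shares with other complexes, had a log2 fold change of -0.38 (adjusted p of 0.0740 in edgeR and 0.0101 in DESeq2). In the group of transport and ammonia, *Slc25a13* and *Slc25a15*, the mitochondrial aspartate and ornithine carriers that serve the urea cycle, had log2 fold changes of -0.40 and -0.25. Neither passed in edgeR, and *Slc25a13* passed in DESeq2 with an adjusted p of 0.0247. Of 14 regulators of amino acid catabolism, among them *Hnf4a*, *Cebpa*, *Gcgr*, *Nr3c1* and *Klf15*, 0 were called by edgeR or DESeq2. An unadjusted p under 0.05 was found for 0 of the 14, against 25.2% of genes with a mean of at least 500. The median log2 fold change of the regulators was -0.09. Their largest difference was -0.39 for *Ppara*, the nuclear receptor of fasting, with an adjusted p of 0.248 in edgeR.

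Markers of some other cell types were higher in mean in *Fmo5*-/- mice. All 7 Kupffer cell markers were higher in mean in *Fmo5*-/- mice. The median of their log2 fold changes was 0.98, and 1, *Clec4f*, was called with edgeR and 5 with DESeq2. Their summed level was 139 to 174 TPM in WT and 240 to 457 TPM in *Fmo5*-/- libraries, without overlap. T and NK cell markers summed to 3.90 to 8.35 TPM in WT and 8.03 to 36.2 TPM in *Fmo5*-/- libraries, which overlap, and neutrophil markers to 3.79 to 9.63 and 11.1 to 23.3 TPM, which do not. All 4 T and NK cell and all 3 neutrophil markers were higher in mean with an unadjusted p under 0.05 in edgeR, but each had a mean count under 500, the minimum for a call, so that 0 could be called with edgeR or DESeq2. Apart from that minimum, *Csf3r* had an adjusted p of 0.0468 in edgeR and 6.16e-05 in DESeq2, and *S100a9* and *Cd3e* had 0.0373 and 0.0273 in DESeq2. Of the other lists, 4 of 7 endothelial, 5 of 6 stellate, 3 of 5 cholangiocyte, 3 of 3 B cell and 4 of 4 red cell markers were higher in mean, with median log2 fold changes of 0.15, 0.21, 0.03, 0.35 and 0.41. Of these lists 0 markers were called with edgeR or DESeq2, and 2 endothelial markers, 1 of them lower, and 1 stellate marker had an unadjusted p under 0.05 in edgeR. The summed levels of the endothelial, stellate, cholangiocyte and red cell markers overlapped between genotypes. In bulk liver, more cells of a type and more RNA per cell cannot be told apart, and the part of these markers in the values of the members was not tested.

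Urea cycle genes are periportal in liver, so markers of the zones, none of them a member, were set beside the members. Of 7 periportal markers, 5 were lower in mean, with a median log2 fold change of -0.19 and 0 called with edgeR, 3 of them at an unadjusted p under 0.05 and 3 called with DESeq2. Their sum was 6347 to 6976 TPM in WT and 5221 to 6282 TPM in *Fmo5*-/- libraries, without overlap. Of 10 perivenous markers, 8 were higher in mean, with a median of 0.29, and 1, *Cyp1a2*, was called higher with edgeR and with DESeq2, while 3 were higher at an unadjusted p under 0.05 in edgeR. Their sum of 6193 to 8994 TPM in WT and 8095 to 9796 TPM in *Fmo5*-/- libraries overlapped. Every one of these zone and cell markers had counts in all libraries. The 6 hepatocyte markers had a median log2 fold change of -0.13, close to that of the members. They summed to 107722 to 136262 TPM in WT and 122693 to 143715 TPM in *Fmo5*-/- libraries, which overlap. Most of this sum was *Alb*, at a mean of 92428 TPM in WT and 96210 TPM in *Fmo5*-/- mice. TPM carry no TMM factor, so sums of markers and log2 fold changes can lean to opposite sides, as they do here. Whether these shifts bear on the members was not tested.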

How the data were processed

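RNA from 6 mouse livers was sequenced as single reads without strand information, and the authors mapped the reads to mm10 and deposited raw counts per gene for each library with STAR. The annotation release is not given in the sources used here. A deposited table of the study's comparison, from which only gene symbols and identifiers were taken, also holds signal (the authors' counts divided by a size factor per library), used only to check that it matches the counts. Its fold changes, standard errors, test statistics and p-values were not used. Between 66.2% and 69.2% of reads lay on genes, and the other rows (unmapped, multimapping, no gene, several genes) were left out of library sizes and tests.

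Counts were tested with edgeR 4.0.16 (R 4.3.3) by the quasi-likelihood test with TMM scaling, filterByExpr at a minimum count of 10 and Benjamini-Hochberg adjustment over 16734 genes. A call needed an adjusted p under 0.05 and, after the study's own limit, a mean normalised count of at least 500. The typical biological coefficient of variation was 15%. With 3 mice against 3, an exact permutation test of a single gene cannot go below p = 0.1. On simulated counts, the fit recovered 11.9%, 70.1% and 90.9% of genes changed by 0.5, 1 and 2 on the log2 scale, with 4 false among 119 calls. The changed genes were drawn at random from all genes tested, including those under a mean of 500. TPM used exon lengths of GENCODE vM21, which held 54409 of the 54446 genes.

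The members and gene lists were chosen with earlier results of these data known. Results of 1 item are not reported here, and it is in none of the plots of single members, though it stays in the counts and medians. Values per library are given for called members and for the member of highest level and that of largest difference in each group. Beyond this rule they are also given for *Got1*, the member called higher with DESeq2. Those of *Mccc2*, *Pcca*, *Bckdha*, *Got2*, *Otc*, *Cps1* and *Prodh* were added after their values had been seen. Alternatives were DESeq2 1.42.0, RLE scaling, scaling without the 20 most abundant genes, no filter on low counts, the limit of 500 before the fit or not at all, the reads of 1 strand, each library left out in turn and, added after the data had been seen, scaling to library totals alone.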

Additional observations from a re-analysis of the deposited data

How the results depend on the processing

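No paired analysis was possible because the labels carry no replicate numbers, and the replicate numbers used here only name libraries. The count of members called lower, 3, was 10 with DESeq2, 13 without the filter on low counts and 0 to 2 with 1 library left out, 0 without *Fmo5*-/- replicate 1, and that of members called higher, 0, was 1 with DESeq2 and 1 without the filter. Over all genes, the 83 called lower became 528 with DESeq2, 704 without the filter, 23 with genes under a mean of 500 dropped before fitting, 45 with library totals alone and 7 to 107 with 1 library left out. The 43 called higher became 216, 277, 113 without the limit on the mean, 178 with totals alone and 7 to 152 with 1 library left out. Of the related genes, the 2 called lower became 8 with DESeq2, 10 without the filter, 1 without the 20 most abundant genes in the scaling, 0 with the limit before the fit, 0 from 1 strand, 1 with totals alone and 0 to 3 with 1 library left out, 3 without *Fmo5*-/- replicate 3. The cause of these changes was not tested.

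Scaling to library totals alone was added after the data had been seen. Under it the median log2 fold change was -0.05 for all members, -0.08 for the urea cycle, 0.16 for glutamate, proline and ornithine, -0.02 for transaminases, 0.03 for tyrosine, -0.03 for tryptophan, -0.14 for serine and glycine, -0.14 for the branched-chain amino acids and -0.11 for methionine and cysteine. The median of tryptophan was -0.08 with the limit before the fit, and that of glutamate, proline and ornithine ran from -0.06 (without WT replicate 3) to 0.12 with 1 library left out.

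Over 14 alternatives the sign was kept by 36 members and turned in 58 of 812 values. Leaving out the limit on the mean, 1 of the 14, keeps the fold changes of the main fit, so no sign could turn under it. None of the turned values belonged to a called member. With the limit before the fit it turned to 0.02 for *Nags*, 0.03 for *Gpt*, 0.01 for *Gcsh*, 0.01 for *Bckdhb*, 0.04 for *Ivd*, 0.03 for *Gnmt*, 0.00 for *Cbs*, 0.01 for *Hal*, 0.04 for *Uroc1*, 0.01 for *Amdhd1* and 0.06 for *Ftcd*. With totals alone it turned to 0.01 for *Cps1*, 0.07 for *Nags*, 0.07 for *Gpt*, 0.03 for *Haao*, 0.05 for *Gcsh*, 0.05 for *Bckdhb*, 0.09 for *Ivd*, 0.03 for *Auh*, 0.07 for *Gnmt*, 0.04 for *Bhmt*, 0.05 for *Cbs*, 0.06 for *Hal*, 0.08 for *Uroc1*, 0.05 for *Amdhd1* and 0.11 for *Ftcd*. *Fah* was -0.01 with DESeq2, -0.00 with RLE scaling and -0.01 without the filter, *Ftcd* was 0.00 without the 20 most abundant genes and with the reads of 1 strand, and *Bcat2* was -0.03 with the reads of 1 strand. With 1 library left out, the log2 fold change ran from -0.09 to 0.02 for *Nags*, -0.17 to 0.22 for *Oat*, -0.00 to 0.11 for *Prodh2*, -0.11 to 0.02 for *Gpt*, -0.02 to 0.14 for *Hpd*, -0.05 to 0.03 for *Fah*, -0.01 to 0.15 for *Afmid*, -0.13 to 0.15 for *Sds*, -0.06 to 0.15 for *Bcat2*, -0.06 to 0.02 for *Ivd*, -0.12 to 0.04 for *Gnmt*, -0.18 to 0.00 for *Bhmt*, -0.15 to 0.04 for *Hal*, -0.08 to 0.06 for *Uroc1*, -0.12 to 0.04 for *Amdhd1* and -0.07 to 0.07 for *Ftcd*.

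Every member had a mean of at least 500 counts, so the spread between mice, more than counting error, sets the precision. Differences of 0.5 on the log2 scale were seldom recovered in simulated counts, where the changed genes came from all genes tested, also those under a mean of 500. Recovery at the level of the members was not simulated. With 3 mice per genotype, a member without a call cannot be taken as unchanged.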
